A study of Drosophila melanogaster with 2 samples.

Results

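The genes of the cell cycle and of DNA replication were examined in ChIP-seq peaks of a green fluorescent protein (GFP) fusion of CG32264, a fly relative of the mammalian Phactr proteins, which bind actin and protein phosphatase 1. The 37 genes were a fixed list of symbols, of which 20 act in the control of S phase entry or in DNA replication and 17 in mitosis. All 37 were found among the 13945 protein-coding genes that Ensembl annotates on the 6 chromosome arms, Mad2 under the spelling mad2. The data came from 1 group, whole Drosophila melanogaster larvae at the third instar, in their wandering phase, with males and females pooled. These larvae carried a stable insertion from which CG32264 is made with GFP at its C terminus, and its chromatin was pulled down with an anti-GFP antibody. Biological replicates 1 and 3 of this group were used, and an input or mock library is not analysed here. Because whole larvae were used, the values pool dividing cells of imaginal discs and brain with polyploid larval cells.

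Cyclin-dependent kinases with their cyclins drive the cell cycle. E2F factors paired with Dp, held in check by Rbf, switch on the genes of S phase, where the origin recognition complex and the Mcm helicase prepare DNA for copying. Mitotic cyclins and the phosphatase String start mitosis, and the Aurora and Polo kinases, the spindle checkpoint and the anaphase-promoting complex carry it through. Most larval tissues of the fly grow by endocycles, rounds of replication without division, while imaginal discs and neural stem cells divide.

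The sequences under 5 peaks are shown as examples, and the peaks of the authors' optimal set at starts of Dp, dpa and Incenp are not among them. The first is the strongest peak near any of the genes, 535 bp from a start of stg and 150 bp from one of CG45544. Then come the 3 peaks at starts of aurA, E2f1 and Mcm5. That of aurA was closer to a start of CG3281 (71 bp) than to aurA (248 bp). The last is the weaker peak between Mcm2 and RPA1, which did not reach the authors' optimal set. Each is given 5′ to 3′ on the strand of the named gene, in Release 6 (dm6) of the genome, and is the part of the peak (up to 300 bases) around the summit that no annotated exon covers. Capitals mark matches to the motifs that were searched, here CACGTG in stg and TTTGAA or its reverse complement TTCAAA in aurA and E2f1. None of the motifs was in the stretches of Mcm5 and Mcm2. The stretches lie on arm 3R at chr3R:29256185-29256437 (stg, minus strand), chr3R:11962806-11963063 (aurA, plus strand), chr3R:21660879-21661178 (E2f1, minus strand), chr3R:10788257-10788523 (Mcm5, plus strand) and chr3R:8264549-8264848 (Mcm2, plus strand).
stg: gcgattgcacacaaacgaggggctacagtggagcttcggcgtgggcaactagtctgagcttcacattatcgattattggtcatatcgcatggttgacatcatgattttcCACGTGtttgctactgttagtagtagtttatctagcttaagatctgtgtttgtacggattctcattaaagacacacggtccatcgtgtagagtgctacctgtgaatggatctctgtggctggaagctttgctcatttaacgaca
aurA: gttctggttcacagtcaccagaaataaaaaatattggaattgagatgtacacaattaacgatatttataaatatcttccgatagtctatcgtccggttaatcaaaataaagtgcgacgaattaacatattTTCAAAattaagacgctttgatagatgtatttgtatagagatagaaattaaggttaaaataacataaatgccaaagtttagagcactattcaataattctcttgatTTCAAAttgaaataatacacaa
E2f1: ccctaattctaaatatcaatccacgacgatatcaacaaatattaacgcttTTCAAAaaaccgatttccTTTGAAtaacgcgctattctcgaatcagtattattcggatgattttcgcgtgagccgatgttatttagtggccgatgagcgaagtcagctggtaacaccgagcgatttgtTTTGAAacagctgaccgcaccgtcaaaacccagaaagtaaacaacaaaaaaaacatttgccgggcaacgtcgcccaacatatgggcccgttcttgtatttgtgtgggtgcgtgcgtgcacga
Mcm5: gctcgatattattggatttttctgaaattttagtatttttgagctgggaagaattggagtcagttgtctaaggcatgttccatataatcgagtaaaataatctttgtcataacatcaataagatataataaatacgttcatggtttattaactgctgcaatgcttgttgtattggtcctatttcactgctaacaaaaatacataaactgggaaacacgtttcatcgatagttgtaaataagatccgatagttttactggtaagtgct
Mcm2: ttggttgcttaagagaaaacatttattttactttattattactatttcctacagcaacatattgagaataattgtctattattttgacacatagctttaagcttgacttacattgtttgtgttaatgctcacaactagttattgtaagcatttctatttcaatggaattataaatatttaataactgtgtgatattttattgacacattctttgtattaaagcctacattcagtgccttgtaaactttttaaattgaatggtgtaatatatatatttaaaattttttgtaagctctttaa

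The authors' optimal set held 2546 peaks kept after an irreproducible discovery rate (IDR) step, a method that compares peak ranks between replicates. These are the top 2546 of a list of 30000 made from both replicates together, ranked by the authors' signal, whose scale belongs to each list. A place in the set thus reflects rank in that list and does not show that a single peak was strong in each replicate. At sqh, outside the 37 genes, the peak of rank 1392 overlapped no listed peak of replicate 1. A gene was given a peak where a summit of that set fell no more than 500 bp from one of its annotated starts. Dp, E2f1, dpa and Mcm5 had such a peak among the replication genes, and aurA and Incenp among the mitosis genes. These are 6 of the 37 genes (16.2%, exact Clopper-Pearson 95% interval 6.19 to 32.0%), beside 10.4% of all protein-coding genes. The replication genes had 4 of 20 (20%, interval 5.73 to 43.7%) and the mitosis genes 2 of 17 (11.8%, interval 1.46 to 36.4%). The interval of each share holds the share of all protein-coding genes. Intervals cover counting error only. There was no test, since the genes are not replicates and the data hold a single group.

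**Figure D1:**
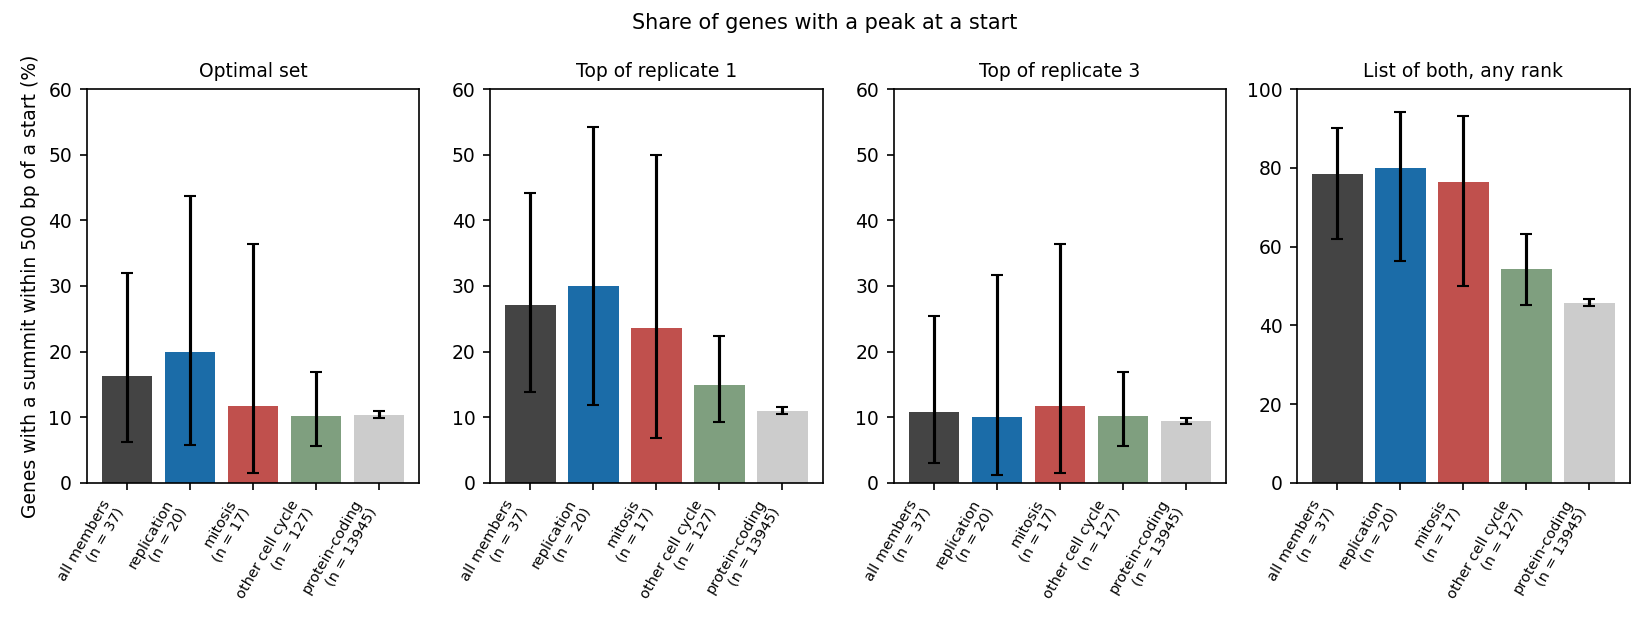
Percentage of genes with a peak summit within 500 bp of an annotated start in the optimal set, in the top 2546 peaks of each replicate's own list, and at any rank of the 30000 peaks of both replicates together. Bars are shares, error bars are exact 95% intervals that cover counting error only, and the vertical axis of the rightmost panel runs to 100%. Of the 37 members, 16.2% had a peak in the optimal set, 27.0% in the top of replicate 1 and 10.8% in the top of replicate 3, beside 10.4%, 11.0% and 9.39% of all protein-coding genes, which include the members.

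Without the threshold of the optimal set, most of the genes had a listed region near a start. At any rank of the list of both replicates, 29 of the 37 genes were listed (78.4%, interval 61.8 to 90.2%), beside 45.8% of protein-coding genes. Within rank 10000 there were 21 of 37 (56.8%, interval 39.5 to 72.9%), beside 28.9%. The shares were lower in the wider list of 127 other cell cycle genes described below. Of these, 69 were listed at any rank (54.3%, interval 45.3 to 63.2%) and 50 within rank 10000 (39.4%, interval 30.8 to 48.4%). In replicate 1 alone 27 of 37 were listed (73.0%, beside 44.7%) and in replicate 3 alone 31 of 37 (83.8%, beside 50.6%). The median best rank over the 37 genes, with unlisted genes placed last, was 7915, while 7564 of the 13945 protein-coding genes were unlisted. Per the deposited notes these lists hold background regions as well as peaks, and a −log10 q of 0.0860 was enough to enter the list of both replicates, so a place far down the list is no evidence of binding. PCNA, Mcm3, mad2 and Klp61F were listed nowhere. Peak lists do not give the number of reads, and a missing peak does not show that the protein was absent.

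**Figure D2:**
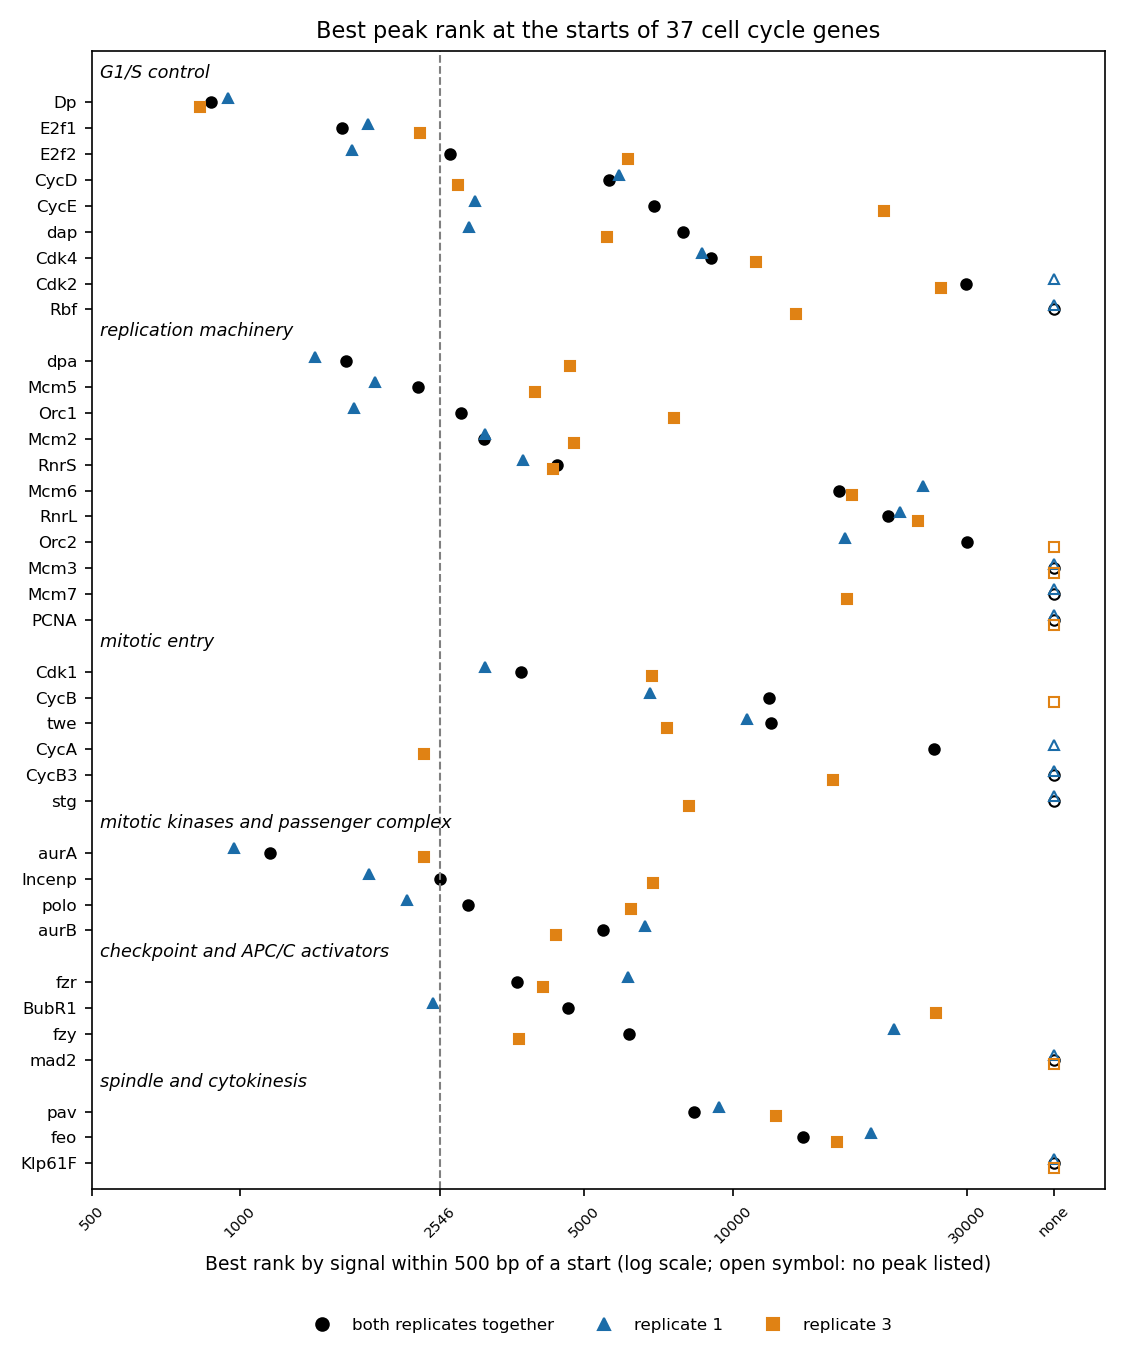
Best rank by signal of any peak within 500 bp of a start, for each of the 37 genes by role, in the list of both replicates together (circles), replicate 1 (triangles) and replicate 3 (squares), on a log axis with strong peaks to the left. The dashed line marks rank 2546, the end of the optimal set, and open symbols at the right mark genes with no listed peak. Dp leads with ranks 874, 946 and 830, and Incenp sits at rank 2543, on the line.

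Among the 9 genes that control entry into S phase, 2 had a peak in the optimal set (22.2%, interval 2.81 to 60.01%). The share of protein-coding genes was 10.4%, which the interval holds. Both genes encode parts of the dimer of E2f1 and Dp. Dp (FBgn0011763, arm 2R, 13222433 to 13228202, plus strand) encodes the DNA-binding partner of the E2F factors. It had the best rank of all 37 genes: its peak had signal 112 in the list of both replicates (rank 874), 63.6 in replicate 1 (rank 946) and 49.4 in replicate 3 (rank 830). The summit lay 144 bp upstream of a start of Dp, inside an intron of a longer transcript, and the summits of the replicates were 44 bp apart. A further peak of the optimal set lay 385 bp downstream of the same start, at rank 2463. E2f1 (FBgn0011766, arm 3R, 21620304 to 21660871, minus strand), the activating E2F factor, had a peak 158 bp upstream of its outermost start, with signal 79.4 (rank 1614), 44.4 in replicate 1 (rank 1823) and 30.6 in replicate 3 (rank 2316). The replicate summits were 1 bp apart. Dp, E2f1 and aurA were the only 3 of the 37 genes among the top 2546 peaks of each replicate taken alone.

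E2f2, the repressive E2F factor, was the first gene past the end of the optimal set, at rank 2673 with signal 59.7, where the weakest peak of the set had 61.1. Its best rank was 1686 in replicate 1 and 6148 in replicate 3, at summits 448 bp apart. CycD (rank 5607), CycE (6927), dap (7915) and Cdk4 (9052) followed. CycD and Cdk4 encode a cyclin and its kinase that promote growth and G1 progression, CycE the cyclin that starts S phase, and dap the inhibitor of the kinase of CycE. Cdk2, the partner of CycE, stood near the end of the list (29760), and Rbf, the retinoblastoma protein that binds E2F, was listed in replicate 3 alone (13452). In the list of both replicates and in replicate 1 the 3 genes of E2F and Dp ranked above the cyclin and kinase genes. In replicate 3 this did not hold, since CycD (rank 2776) stood ahead of E2f2 (6148).

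Of the 11 genes of the replication machinery, 2 had a peak in the optimal set (18.2%, interval 2.28 to 51.8%), beside 10.4% of protein-coding genes. Both are helicase genes, which differed widely from each other. The Mcm proteins form a ring of 6 different subunits that opens DNA at origins. dpa, which encodes the Mcm4 subunit (FBgn0015929, arm 2R, 7496702 to 7500145, minus strand), had signal 79.0 (rank 1638), 51.5 in replicate 1 (rank 1417) and 21.4 in replicate 3 (rank 4670). Mcm5 (FBgn0017577, arm 3R, 10788524 to 10791150, plus strand) had signal 65.3 (rank 2298), 43.7 in replicate 1 (rank 1879) and 23.3 in replicate 3 (rank 3963). Both ranked within the top 2546 in replicate 1 and outside it in replicate 3. A peak near Mcm2 was just outside the optimal set (rank 3130, signal 54.4), with replicate summits 5 bp apart. It lay 271 bp from Mcm2 and 248 bp from RPA1, the gene of the large subunit of a single-strand DNA-binding protein of replication, so the same peak stands for both. Mcm6 was at rank 16478, Mcm7 was listed in replicate 3 alone (17067) and Mcm3 not at all.

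The other replication genes had no peak in the optimal set. Orc1, the largest subunit of the origin recognition complex, was close to it at rank 2809 (signal 58.2), with rank 1703 in replicate 1 and 7599 in replicate 3. Orc2, its partner subunit, was at rank 29979. RnrS and RnrL encode the small and large subunits of ribonucleotide reductase, which makes the building blocks of DNA, and stood at ranks 4408 and 20694. PCNA, the sliding clamp of the replication fork, had no listed peak within 500 bp of either of its 2 starts.

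The genes of mitotic kinases and the passenger complex had peaks at 2 of 4 (50%, interval 6.76 to 93.2%), beside 10.4% of protein-coding genes. The interval holds that share. Of the mitotic kinase genes, aurA (FBgn0000147, arm 3R, 11963124 to 11964826, plus strand), which encodes the Aurora A kinase of centrosomes and spindle poles, had signal 95.9 (rank 1151). It had 62.7 in replicate 1 (rank 971) and 30.3 in replicate 3 (rank 2361), with the summit at the same base in both. Incenp (FBgn0260991, arm 2R, 7278467 to 7281795, plus strand), the scaffold of the chromosomal passenger complex, was the last of the 37 genes inside the optimal set, with signal 61.2 (rank 2543). It had 44.4 in replicate 1 (rank 1830) and 17.1 in replicate 3 (rank 6892). polo, the kinase of mitotic entry and exit, lay outside at rank 2902, with ranks 2185 and 6230 in replicates 1 and 3. aurB, the kinase of the passenger complex, was at rank 5458 and 436 bp upstream of its start.

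No gene of mitotic entry, of the checkpoint or of spindle and cytokinesis had a peak in the optimal set within 500 bp. At 0 of 6, 0 of 4 and 0 of 3 genes, the upper ends of the intervals were 45.9%, 60.2% and 70.8%, so these counts say little. Cdk1, the mitotic kinase, came closest among the genes of mitotic entry (rank 3711), then CycB (11864) and twe, a germline phosphatase of the String family (11952). CycB and CycB3 encode B-type cyclins of mitosis. CycB3 and stg were listed in replicate 3 alone. CycA, a mitotic cyclin gene, was at rank 2358 in replicate 3, inside the top 2546, with no listed peak in replicate 1 and rank 25596 in the list of both. The activators of the anaphase-promoting complex, fzr and fzy, ranked 3646 and 6149, and the spindle checkpoint gene BubR1 4636. The checkpoint gene mad2 was not listed. The genes of the cytokinesis proteins pav and feo were at ranks 8366 and 13874, and Klp61F, the spindle kinesin, was not listed.

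The strongest peak near any of these mitosis genes lay just beyond the window. stg (FBgn0003525, arm 3R, 29251826 to 29255800, minus strand) encodes String, the Cdc25 phosphatase that sets the time of mitosis. A peak of rank 99 (29256185 to 29256437, signal 300.4) had its summit 535 bp upstream of a start of stg and 150 bp from a start of its neighbour CG45544. The overlapping peaks of the replicates had ranks 93 and 105, so both replicates placed it among their strongest. A weaker peak of the optimal set lay in an intron of stg, 747 bp downstream of a start (rank 2483). With a window of 1000 bp stg was the gene that joined, and 7 of 37 genes had a peak (18.9%, beside 12.6% of protein-coding genes).

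Other peaks of the optimal set lay in or near the genes and away from their starts. E2f1 held 3 in its introns, at ranks 1174, 2196 and 2352, and each had a start of E2f1 as its closest protein-coding start. Cdk4 held 1 in an intron (rank 1527), which was closer to a start of RpLP2, at 2129 bp, than to any of Cdk4. A peak of rank 274 (arm 2R, 22802888 to 22803049, signal 194) lay in intergenic sequence 3366 bp downstream of a start of CycB, with ranks 242 and 470 in replicates 1 and 3. No protein-coding gene had a start closer to it than CycB. Near Orc1, pav, Mcm6 and E2f2 the nearest peaks were at ranks 157, 319, 379 and 668, and each lay closer to the start of another gene, at Drat, Sqor, ND-ASHI and Coq3.

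Summits lay upstream of the start more often than downstream, as for other genes. Of the 29 genes with a listed peak in the list of both replicates, 23 had the best summit upstream (79.3%, beside 76.6% of the 6381 protein-coding genes listed). The median distance from the start was 137 bp, beside 149 bp. Among the 6 genes with a peak of the optimal set, dpa was the exception, with a summit 118 bp downstream of a start, in its 5′ UTR.

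**Figure D3:**
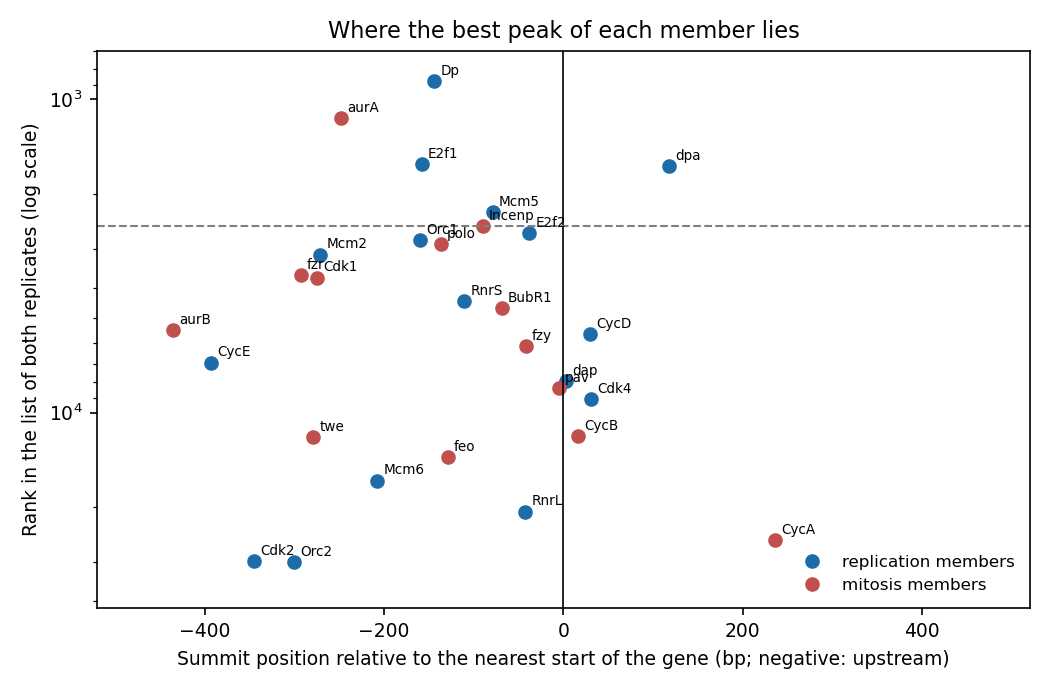
Position of the best summit of each listed gene relative to its nearest start (horizontal axis, bp, negative upstream) against the rank of that peak in the list of both replicates (vertical axis, log scale, strong peaks at the top), with replication genes in blue and mitosis genes in red. Of the 29 summits shown, 23 lie upstream, and the dashed line marks rank 2546.

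Several of these peaks cannot be assigned to 1 gene. Of the 29 genes in the list of both replicates together, 12 had a best summit that was also within 500 bp of a start of another protein-coding gene, and for 6 of them (Mcm2, Mcm6, Cdk1, twe, aurA and aurB) the other gene was closer. The summit given for twe was 15 bp from CG4935 and that for aurB was 6 bp from Stam. The summit at aurA was 248 bp from aurA and 71 bp from a start of CG3281 on the other strand. The summit at dpa was 118 bp from dpa and 120 bp from didum, which encodes a myosin V. The summit at Mcm5 was 79 bp from Mcm5 and 219 bp from Art1, an arginine methyltransferase gene, and that at Incenp was 90 bp from Incenp and 276 bp from Br140. Of the 37 genes, 11 had a protein-coding gene on the opposite strand with a start within 500 bp of their own, and 5 of these 11 had a peak in the optimal set (45.5%, interval 16.7 to 76.6%), beside 20.7% of all protein-coding genes with such a neighbour. Dp is 1 of the 5, but its peak of rank 874 was not within 500 bp of a start of its neighbour, Fsn. Of the 26 without such a neighbour, E2f1 alone had a peak (3.85%, interval 0.0973 to 19.6%), beside 6.42% of protein-coding genes. Number of starts went with peaks in the same way. The 24 genes with 1 start had 2 peaks (8.33%, beside 7.33%) and the 13 with several starts had 4 (30.8%, beside 18.9%). The parts of neighbours and of start number in the counts were not tested.

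The replicates ranked these genes differently. Among the top 2546 peaks of replicate 1 there were 10 of the 37 genes (27.0%, interval 13.8 to 44.1%), beside 11.0% of protein-coding genes. They were the 6 of the optimal set and E2f2, Orc1, polo and BubR1. In replicate 3 there were 4 (10.8%, interval 3.03 to 25.4%), beside 9.39%, and these were Dp, E2f1, aurA and CycA. Thus 3 genes were in both top lists, 7 in that of replicate 1 alone and CycA in that of replicate 3 alone. Over all protein-coding genes the numbers were 877, 652 and 433. Of the 20 replication genes 6 were in the top list of replicate 1 and 2 in that of replicate 3, and of the 17 mitosis genes 4 and 2.

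Of the 25 genes listed in both replicates, 17 had the better rank in replicate 1 (68.0%, beside 58.3% of the 4809 protein-coding genes listed in both). Split by process, this held for 11 of 14 replication genes and 6 of 11 mitosis genes. Spearman's rho of the best ranks was 0.42 over the 25 genes and 0.62 over the 4809, as a description of genes that share the same 2 libraries. The summits of the replicates were within 100 bp of each other at 15 of the 25 genes (60%, beside 53.6%). BubR1 showed the widest contrast in one direction, with rank 2462 in replicate 1 and 25919 in replicate 3, and fzy in the other, with 21325 and 3678. The cause of the difference between the replicates was not tested.

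**Figure D4:**
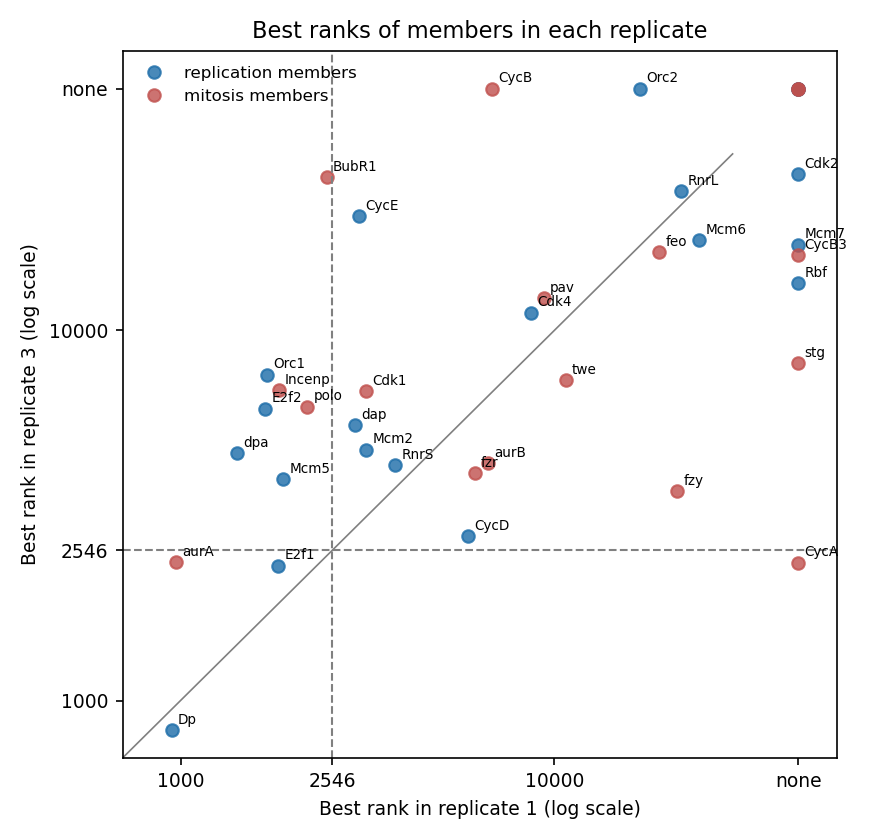
Best rank of each of the 37 genes in replicate 1 (horizontal) against replicate 3 (vertical), both on log axes with strong peaks at the lower left, replication genes in blue and mitosis genes in red. Dashed lines mark rank 2546, the grey line marks equal ranks, genes not listed in a replicate are drawn at none, and 4 genes lie together at the upper right corner. Only Dp, E2f1 and aurA are inside both dashed lines.

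A wider list held 127 genes of the same pathways, outside the 37. In the optimal set these had peaks about as often as protein-coding genes in general. A peak was found at 13 of 127 (10.2%, interval 5.56 to 16.9%), beside 10.4%. They were 4 of 49 genes of replication, its checkpoints and the dREAM and SCF complexes, and 9 of 78 of mitosis. Genes of licensing and firing of origins had dup, the fly Cdt1 that loads the Mcm helicase (rank 888), and chif, the activator of the Cdc7 kinase (rank 1053). An intron that chif shares with Hyls1 also held a stronger peak 892 bp from a start of chif (rank 132). Top1, a DNA topoisomerase gene, had rank 1162 and p53, the gene of the damage-response factor, rank 1501. The regulators of mitotic entry tws and mts encode subunits of protein phosphatase 2A and had ranks 1033 and 1875. The summit at mts was 384 bp from its start and 20 bp from that of Rack1, and the summit at dup was 107 bp from dup and 3 bp from SRPK.

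Among other mitosis genes, 5 of the 20 of spindle and cytokinesis had a peak (25%, interval 8.66 to 49.1%), beside 10.4% of protein-coding genes, a share that the interval holds. They were pnut (rank 255) and Septin2 (1367), which encode septins of the cleavage furrow, sqh, the regulatory light chain of myosin II (1392), the gamma-tubulin gene gammaTub23C (2077) and dia, a formin that nucleates actin (2151). The peak at pnut had signal 199.9 and ranks 328 and 273 in replicates 1 and 3, ahead of every peak of the 37 genes within 500 bp. sqh had rank 1184 in replicate 3 and no listed peak in replicate 1. SMC2, a condensin gene, had rank 944 and Cdc16, a subunit of the anaphase-promoting complex, rank 2524. The summit at SMC2 was 136 bp from SMC2 and 152 bp from Ercc1, and that at Cdc16 was 209 bp from Cdc16 and 136 bp from orb. The summit at gammaTub23C was 120 bp from gammaTub23C and 263 bp from Rrp1. That at Septin2 was 353 bp from Septin2 and 0 bp from a start of the antisense RNA gene asRNA:CR46044. The 9 kinetochore genes had 0 peaks in the optimal set (interval up to 33.6%) and the 11 genes of the dREAM and SCF complexes also 0 (interval up to 28.5%), and both intervals hold the 10.4% of protein-coding genes. dREAM binds promoters together with E2F2 and Rbf. In the top 2546 peaks of replicate 1, the kinetochore gene Spc25 was at rank 1618, which is 1 of 9 genes (11.1%, interval 0.281 to 48.2%), beside 11.0%. The top of replicate 3 held lin-52 (717) and SkpA (1234) of dREAM and SCF, which is 2 of 11 genes (18.2%, interval 2.28 to 51.8%), beside 9.39%. Neither lin-52 nor SkpA had a listed peak within 500 bp of a start in replicate 1. In the list of both replicates lin-52 was not listed within 500 bp and SkpA was at rank 15699. With a window of 1000 bp both were among the genes with a peak of the optimal set. The count was then 16 of 127 (12.6%, beside 12.6% of protein-coding genes).

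The promoters of the 37 genes, taken as 250 bases before to 50 bases after each start in Release 6, were searched for 6 motifs on both strands. The DNA replication-related element TATCGATA, bound by the factor Dref, was in 7 of the 37 (18.9%, beside 10.2% of protein-coding genes): PCNA, Orc2, Cdk2, Cdk4, CycA, BubR1 and mad2. None of these 7 had a peak in the optimal set, beside 15.6% of the 1418 protein-coding genes with the element. E2F sites, TTTGGCGC or TTTCGCGC, were in 7 of 37 (18.9%, beside 4.64%): CycE, Mcm6, Orc1, RnrL, dpa, CycB and stg. Of these, dpa had a peak, beside 15.5% of the 647 protein-coding genes with such a site. The M1BP element GGTCACACT was in 6 of 37 (16.2%, beside 6.78%), of which 5 are mitosis genes (CycB, CycB3, Klp61F, aurB and fzy) and 1 is Mcm3. None of the 6 had a peak, beside 14.1% of the 945 genes with the element. With 7 genes for TATCGATA and 6 for GGTCACACT, these absences say little.

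In windows reaching 100 bases to either side of the summits, the 7 peaks of the optimal set at these genes held no TATCGATA and no GGTCACACT, beside 2.95% and 0.786% of all 2546 summits. An E2F site was in the peak of dpa (beside 2.36%) and CACGTG in that of Dp (beside 2.24%). TTTGAA, a 6-letter cell cycle homology region known from mammalian mitosis genes, was in 4 of the 7 (aurA, E2f1, dpa and Incenp), beside 28.6% of all summits. It was in the promoters of 22 of 37 genes (59.5%), beside 46.2%. GAGAGAG was in the promoters of 4 of 37 (10.8%, beside 9.09%), all replication genes, and in no summit window at a gene of the 37. GC content of the 7 windows was 38.6% ± 6.09 (SD over windows), beside 36.9% ± 6.46 over all 2546. A match is a match of letters and shows no binding.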

How the data were processed

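Chromatin immunoprecipitation sequencing was done by the submitters on 2 biological replicates, with chromatin sonicated to 200 to 800 bp, per the labels. The deposited peak lists in build dm6 were used, with the authors' peak signal, −log10 q values and summit offsets, an other kind of number given in bases. Per the deposited notes, each list of peaks and background derives from the alignments of its replicates and 1 further file, and the optimal set derives from those lists. Which aligner, peak caller and cut-offs were used is not given in the sources used here. Peaks were ranked by signal within a list, and summits were set against transcript starts of Ensembl release 115 (BDGP6) on 6 arms, with sequence from RefSeq Release 6. Depth is unknown from peak lists. The members, the list of 128 other genes (127 found), the motifs and the naming rule were chosen with earlier results of these data known. That rule covers all members, other genes with a peak in the optimal set and genes whose start shares a summit with a member. Spc25, lin-52 and SkpA, with no peak of that set within 500 bp, were named outside it. Not all other genes at the top of 1 replicate alone are named. Peak positions placed at known distances were recovered when the matching was tested on simulated data. No test was made, and alternatives are in the closing section. Python 3.11.15, pandas 2.3.3 and scipy 1.17.1 were used. Lists in build dm3 were not used.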

Additional observations from a re-analysis of the deposited data

How the results depend on the processing

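The counts of genes with a peak were recomputed with windows of 250 and 1000 bp, with any base of the peak in the window, with starts of protein-coding transcripts alone, with the stronger 50% of peaks and with each replicate's own top 2546 peaks. With the stronger 50% of peaks 2 of the 37 genes (Dp and aurA) had a peak in place of 6, with 1 replication gene in place of 4, 1 mitosis gene in place of 2 and 6 of the 127 other genes in place of 13; that setting has fewer peaks, and the share of protein-coding genes fell to 5.37%, against 10.4%. Leaving out a replicate gave 4 to 10 of the 37 genes, 2 to 6 replication genes and 2 to 4 mitosis genes, the lower number without replicate 1 each time. Under the other settings the counts stayed within 1.5 times of those reported. No paired analysis was possible because there is 1 group. Depth limits the lists in a way that cannot be measured here.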
